A study of Mus musculus with 14 samples.

Results

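The members described here are 37 mouse genes of megakaryocytes and platelets, chosen by name, out of 23597 gene symbols kept in the compound OB libraries with their controls and 54540 in the compound PD libraries with theirs. All 37 were listed once in both sets. By role, 10 encode adhesion receptors, 4 agonist receptors, 9 granule contents or granule makers, 3 eicosanoid enzymes, 4 signalling adaptors and 7 cytoskeletal proteins. The cells were BFU-E, the burst-forming progenitors at the start of the red cell lineage, cultured from C57BL/6 fetal liver in StemSpan SFEM II. The 4 groups of 3 libraries were compound OB at 100 µM with its own DMSO solvent control, called OB DMSO, and compound PD at 3 nM with its own control, PD DMSO. All groups are the same strain, tissue and cell type by their labels, with no allele or transgene named. A CREB immunoprecipitation and its input, 2 further samples, were not analysed here. Whether the 3 libraries of a group are separate cultures or animals is not stated in the labels. The p-values therefore measure only the spread between these libraries, which may be technical.

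Megakaryocytes are the large bone marrow and fetal liver cells that shed platelets, and they share a progenitor with red cells. A platelet sticks to a damaged vessel through its glycoprotein and integrin receptors, answers thrombin, ADP and thromboxane through agonist receptors, and then empties granules of chemokines and adhesive proteins while its actin and tubulin skeleton changes shape. Most genes for these parts are switched on together as a megakaryocyte matures, under transcription factors of the GATA, ETS and RUNX families, and several of them (Cd9, Flna, Tln1, Vcl, Zyx, Thbs1) are also used by many other cells.

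Values are FPKM, counts of read fragments divided by gene length and library size, so levels can be set beside each other between genes within a set. The sets list different numbers of gene entries (24054 for OB and 54752 for PD), and how their FPKM were computed is not given. Levels in one set are therefore not tested against the other. Library values are given in the order of replicate numbers 1, 2 and 3. A call means an adjusted p under 0.05 in limma, fitted on log2(FPKM + 1) to all genes of a set with a mean of at least 1 FPKM. Number 1 stood apart for these genes in all 4 groups, and the labels do not say what the numbers stand for, so the results are given with and without the number 1 libraries, an alternative chosen after seeing the data. These are bulk libraries, in which a change in the share of a cell type and a change in RNA per cell cannot be told apart.

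Transcripts of these genes were readily measured in cultures labelled as erythroid progenitors. Pf4, which encodes the alpha-granule chemokine platelet factor 4, was the most abundant member in both sets, with a mean of 3366 FPKM over the 6 libraries of the PD set and 575 FPKM over those of the OB set. It held 46.8% of the summed level of the members in compound PD and 44.6% in PD DMSO, and 36.1% in compound OB and 39.6% in OB DMSO. Next in the PD set came Thbs1 (472 FPKM), Itga2b (334) and Cd9 (299.8), and in the OB set Fermt3 (146), Ppbp (70.5) and Tln1 (62.7). In the PD set 35 of the 37 members had a mean of at least 10 FPKM and 14 of at least 100 FPKM, while in the OB set 23 reached 10 FPKM and 2 reached 100. The lowest 2 members in both sets were P2ry12 and Selp. Across the 37 genes, the Spearman correlation of the DMSO means between the sets was 0.92, a description over genes that share their libraries.

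All 37 members had a higher fitted mean in compound PD than in PD DMSO, with a median log2 difference of 0.81, against 0.06 over all 11887 genes tested. None of the 37 passed the adjusted threshold in limma, where 3 genes of the whole set did (0.0252%), and 31 members had an unadjusted p under 0.05, against 10.7% of all genes. With median-ratio scaling that second count was 10, and all 37 members were still higher in compound PD. It was also 10 without compound PD 1, 12 without PD DMSO 2 and 14 without PD DMSO 3. Over all genes the count was 1330 of 11887 with median-ratio scaling and 749 of 11825 without compound PD 1. It was 1178 of 11876 without PD DMSO 2 and 1200 of 11855 without PD DMSO 3. The lowest adjusted p was 0.0992, shared by Tubb1 and Flna. The 3 compound libraries lay above all 3 DMSO libraries for 15 members, against 13.1% of all genes. These were Itga2b, Itgb3, Gp1ba, Gp1bb, Gp9, Clec1b, P2rx1, Vwf, Nbeal2, Ptgs1, Tbxas1, Gng11, Tubb1, Flna and Mylk. Summed over the members, the level was 12170.4, 7596 and 7963 FPKM in the compound PD libraries, against 7743, 4263 and 4221 FPKM in the PD DMSO libraries. Within each group number 1 was the highest, and PD DMSO 1 lay between compound PD 2 and 3.

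Leaving out number 1 moved the calls in the PD set. With 2 libraries a group, 27 of the 37 members were higher in compound PD at an adjusted p under 0.05, where 1.72% of all genes were. The median was then 0.91, and 37 of 37 members had a positive difference. Leaving out PD DMSO 1 alone gave 16 members called higher, where 1.10% of all genes were. The 10 members that did not pass without number 1 were Gp6, F2r, P2ry12, Selp, Nbeal2, Ptgs1, Tbxas1, Fermt3, Lat and Mylk, with log2 differences from 0.34 for Fermt3 to 0.97 for Gp6.

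In the OB set the members did not lie to one side. Of the 35 members past the filter, 24 had a higher and 11 a lower fitted mean in compound OB, with a median log2 difference of 0.09, against 0.03 over all 10073 genes. None was called in limma, nor was any gene of the set (0%), and 1 member, Myl9, had an unadjusted p under 0.05, against 3.69% of all genes. For no member did the compound libraries all lie above or all below the DMSO libraries. Of all genes, 5.31% had every compound library higher and 3.4% had every compound library lower. The summed level was 1935, 1286 and 1285 FPKM in the compound OB libraries, against 2527, 971 and 1107 FPKM in the OB DMSO libraries. The 2 number 1 libraries were again the highest of their groups, and OB DMSO 1 was the highest of the 6.

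The direction in the OB set turned on number 1. Compound OB 1 was below OB DMSO 1 for all 35 tested members (median log2 difference −0.37, against −0.03 over all genes). Compound OB 2 was above OB DMSO 2 for 31 members and below for 4 (median 0.44, against 0.11), and compound OB 3 was above OB DMSO 3 for the same numbers of members, 31 and 4 (median 0.17, against 0.02). Without number 1, 15 members were called higher in compound OB, where 15.4% of all genes were, and 2 (Myl9 and Cd9) were called lower, where 2.42% were. The 15 were Itga2b, Itgb3, Gp1ba, Gp1bb, Gp5, Treml1, F2rl2, Vwf, Thbs1, Alox12, Fermt3, Lat, Tln1, Zyx and Flna. With libraries matched by replicate number, no member was called (0.0695% of all genes). In this set number 1 went together across the groups, but whether numbers 2 and 3 are pairs is not settled. Matched and without number 1, 13 members were called higher (9.72% of all genes), the 15 less Gp1ba and Gp1bb, and none was called lower (1.65% of all genes). Matched and without number 2, Cd9 and Myl9 were called lower (0.743%). Without OB DMSO 1 the median over the members was 0.48, and it was negative without OB DMSO 2, OB DMSO 3 or compound OB 1.

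The same comparison by number gave one direction for the PD set. Compound PD 1 was above PD DMSO 1 for 35 members and below for P2ry12 and Myl9 (median 0.58, against 0.34 over all genes). For numbers 2 and 3 all 37 members were higher in compound PD, with medians of 0.87 and 0.90, against −0.03 and −0.04 over all genes. Whether the numbers pair the libraries of the PD set is not stated in the labels, so these are comparisons of 1 library with 1 library.

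**Figure D1:**
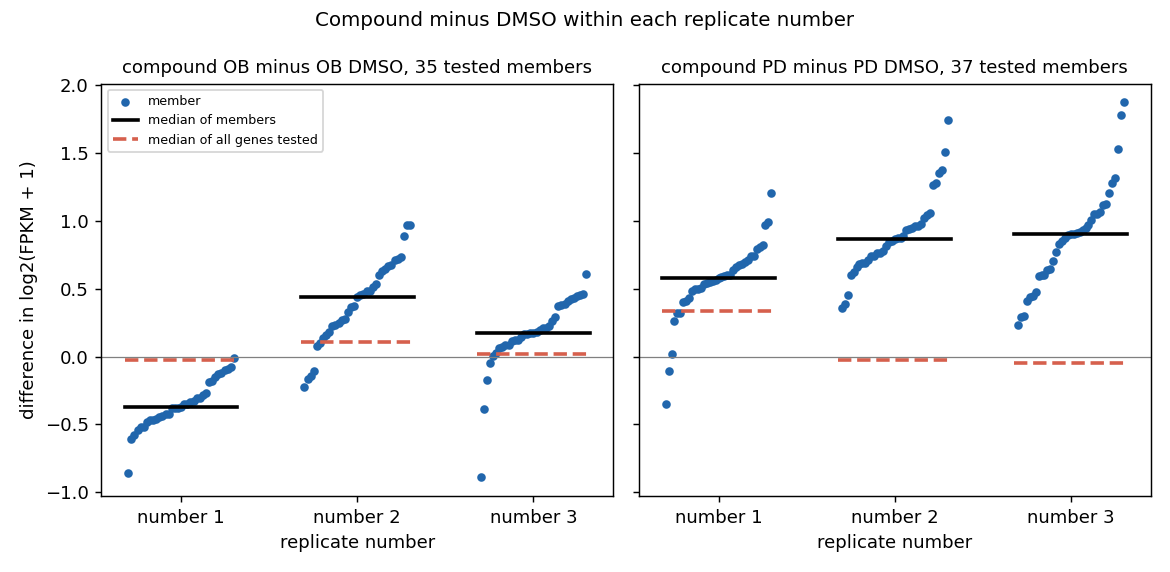
Difference in log2(FPKM + 1) between the compound and the DMSO library of each replicate number, 1 point for each tested member, sorted, with the members' median (solid line) and the median of all genes tested (dashed line). All 35 members lie below 0 for number 1 of the OB set, where the median is −0.37, and 37 of 37 lie above 0 for numbers 2 and 3 of the PD set.

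**Figure D2:**
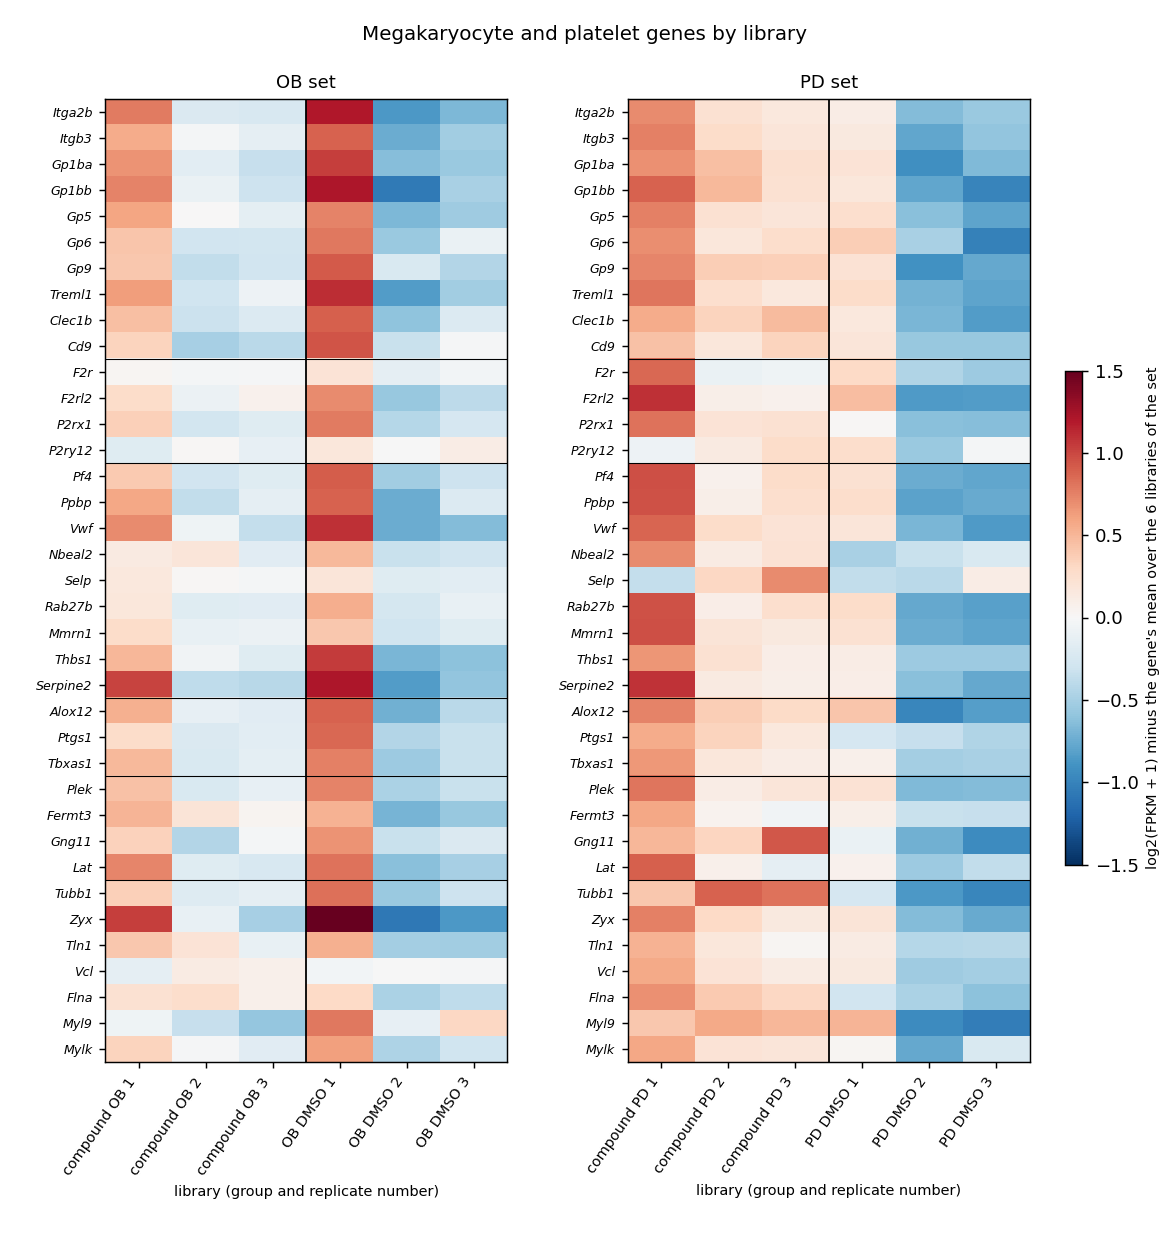
Each of the 37 members (rows, grouped by role) in each library (columns), as log2(FPKM + 1) minus the gene's mean over the 6 libraries of its set, with red higher and blue lower. Compound OB 1 and OB DMSO 1 are red for nearly all rows on the left. On the right the compound PD libraries are mostly red, PD DMSO 2 and 3 are blue for nearly all rows, and PD DMSO 1 holds both colours.

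Number 1 was the highest of the 3 libraries for 32 of 35 tested members in compound OB (38.6% of all genes) and for 34 of 35 in OB DMSO (48.1%). It was the highest for 32 of 37 in compound PD (48.3% of all genes) and for 35 of 37 in PD DMSO (21.2%). The median ratio of number 1 to the mean of numbers 2 and 3 was 1.58 in compound OB and 2.50 in OB DMSO, where all genes had 0.976 and 1.04. It was 1.44 in compound PD and 1.79 in PD DMSO, where all genes had 1.05 and 0.795. Not every member followed. Vcl was flat in the OB set (0.848 in compound OB and 0.983 in OB DMSO) and so, nearly, was F2r (1.04 and 1.23), whereas Zyx had the largest ratios (2.60 and 6.03) beside Serpine2 (3.13 and 4.78). In compound PD number 1 was not the highest for P2ry12, Selp, Gng11, Tubb1 and Myl9. Vcl, F2r, Zyx and Serpine2 were singled out after their values were seen.

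The adhesion receptors hold platelets to the vessel wall and to each other. All 10 had a higher mean in compound PD, with log2 differences from 0.63 (Cd9) to 1.06 (Gp1bb) and a median of 0.81, and 9 of the 10 passed without number 1. In compound OB 6 were higher and 4 lower, from −0.39 (Cd9) to 0.30 (Gp5). Itga2b, which encodes integrin alpha IIb, the megakaryocyte chain of the fibrinogen receptor, had 518, 371 and 354 FPKM in the compound PD libraries, against 342, 202 and 216 FPKM in the PD DMSO libraries. The lowest compound PD library was above PD DMSO 1, and the log2 difference was 0.73 (SE 0.23, adjusted p = 0.279, and 0.0121 without number 1). By contrast, Itga2b had 74.2, 36.6 and 35.9 FPKM in compound OB, against 99.7, 23.1 and 26.5 FPKM in OB DMSO, and the groups overlapped, with number 1 far above the rest in both (log2 0.22, SE 0.58, adjusted p = 0.9998).

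Cd9, a tetraspanin of the platelet surface that many other cells carry, had 393, 326 and 364 FPKM in compound PD, against 327, 195 and 194 FPKM in PD DMSO (log2 0.63, SE 0.21, adjusted p = 0.302, and 0.0132 without number 1). The groups overlapped only through PD DMSO 1, which was just above compound PD 2. With the other compound, Cd9 had 63.2, 35.1 and 37.6 FPKM in compound OB, against 97.0, 39.4 and 49.4 FPKM in OB DMSO. Here each compound library was below the DMSO library of its number, with log2 −0.39 (SE 0.37, adjusted p = 0.9998), and it was called lower without number 1 (log2 −0.27, adjusted p = 0.0402), but not with the libraries also matched by number (adjusted p = 0.0615).

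The other adhesion receptors are Itgb3, the partner chain of Itga2b, the 4 chains of the receptor for von Willebrand factor (Gp1ba, Gp1bb, Gp5 and Gp9), the collagen receptor Gp6, the podoplanin receptor Clec1b and the granule-stored receptor Treml1. Their means were from 27.5 ± 5.77 FPKM (Gp6) to 239.7 ± 53.6 FPKM (Itgb3) in compound PD, against 17.0 ± 8.95 and 139.6 ± 50.9 FPKM in PD DMSO (SD, n = 3). The 4 chains of the von Willebrand factor receptor had log2 differences of 0.92 (Gp1ba), 1.06 (Gp1bb), 0.77 (Gp5) and 0.97 (Gp9) in the PD set, and 0.11, 0.23, 0.30 and −0.17 in the OB set. Each of the 4 passed in the PD set without number 1, with adjusted p from 0.00872 (Gp9) to 0.0194 (Gp1ba). Gp6 did not (adjusted p = 0.0732).

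Gp1bb had 136, 103 and 85.2 FPKM in compound PD, against 82.2, 42.1 and 36.3 FPKM in PD DMSO, and 18.2, 9.68 and 8.21 FPKM in compound OB, against 25.4, 4.46 and 7.16 FPKM in OB DMSO. Clec1b had 89.8, 77.0 and 84.7 FPKM in compound PD, against 67.8, 37.5 and 33.4 FPKM in PD DMSO, and 15.8, 8.82 and 9.68 FPKM in compound OB, against 21.8, 7.10 and 9.66 FPKM in OB DMSO. Both genes were clear of overlap in the PD set, and in the OB set both had OB DMSO 1 above every other library. Gp1bb and Clec1b were picked after their values were seen, as the adhesion receptor with the largest difference in the PD set and the one whose compound PD libraries were closest together in ratio.

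Itga2b, the adhesion receptor of highest level in the PD set, and Gp5, whose upstream window holds both kinds of motif described here, have the 250 bases before their annotated transcription starts printed from RefSeq (GRCm38.p6, the assembly that mm10 names), 5′ to 3′ on the gene's strand, with the minus strand for both. The Itga2b window is chr11:102469884-102470133 and that of Gp5 chr16:30310782-30311031. Capitals mark the ETS core GGAAGT and the GATA forms AGATAA or TGATAA, each also with a final G (the forms AGATAG and then TGATAG), on either strand.
Itga2b: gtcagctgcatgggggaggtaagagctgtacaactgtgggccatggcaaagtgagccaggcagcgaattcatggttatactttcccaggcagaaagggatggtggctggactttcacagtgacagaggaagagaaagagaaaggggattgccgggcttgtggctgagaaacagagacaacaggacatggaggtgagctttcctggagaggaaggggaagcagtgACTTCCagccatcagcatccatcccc
Gp5: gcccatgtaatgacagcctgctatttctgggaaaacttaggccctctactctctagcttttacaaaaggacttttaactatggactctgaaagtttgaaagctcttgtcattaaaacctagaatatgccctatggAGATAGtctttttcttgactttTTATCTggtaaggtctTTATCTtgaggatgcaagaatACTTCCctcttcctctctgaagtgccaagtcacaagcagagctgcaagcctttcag
Itga2b has the ETS core once, on the opposite strand, and Gp5 has it once together with 3 GATA forms. A match describes letters and is not a binding site.

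The agonist receptors take up the signals that activate platelets. F2r encodes the thrombin receptor PAR1, which acts on human platelets, and F2rl2 encodes PAR3, which in mouse platelets helps thrombin to act on another receptor. F2r had 197, 101 and 104 FPKM in compound PD, against 134, 78.9 and 74.0 FPKM in PD DMSO, and PD DMSO 1 was above compound PD 2 and 3 (log2 0.46, SE 0.30, adjusted p = 0.701, and 0.0732 without number 1). Within the OB set it had the smallest SE of any member but Vcl, with 50.7, 48.7 and 49.1 FPKM in compound OB and 57.6, 45.4 and 48.3 FPKM in OB DMSO (log2 −0.02, SE 0.11, adjusted p = 0.9998). F2rl2 had 119.8, 58.9 and 58.1 FPKM in compound PD, against 76.7, 30.3 and 30.5 FPKM in PD DMSO (log2 0.83, SE 0.39, adjusted p = 0.509, and 0.0147 without number 1).

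F2rl2 had 17.6, 13.5 and 15.2 FPKM in compound OB, against 24.1, 9.40 and 10.7 FPKM in OB DMSO, where OB DMSO 1 was the highest and OB DMSO 2 and 3 the lowest of the 6 libraries (log2 0.17, SE 0.33, adjusted p = 0.9998). P2rx1, an ATP-gated channel, did not overlap between the groups of the PD set (94.1, 61.6 and 62.5 FPKM in compound PD, against 53.8, 33.9 and 33.6 FPKM in PD DMSO). P2ry12, the ADP receptor that platelet inhibitors block, was near the floor of the filter, with 1.21, 1.57 and 1.82 FPKM in compound PD, against 1.81, 0.59 and 1.29 FPKM in PD DMSO, and at most 0.44 FPKM in any library of the OB set. It was the member with the smallest difference in the PD set (log2 0.22). The F2r and F2rl2 genes are neighbours on chromosome 13, 78454 bases apart.

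The granule genes encode what platelets release, and the proteins that build the granules. All 9 had a higher mean in compound PD, from 0.45 (Selp) to 0.90 (Vwf) with a median of 0.87, and 7 passed without number 1. In compound OB 6 of the 8 tested were higher and 2 lower, from −0.12 (Rab27b) to 0.20 (Vwf). Pf4 had 6017, 3232 and 3717 FPKM in compound PD, against 3607, 1833 and 1792 FPKM in PD DMSO. PD DMSO 1 lay between compound PD 2 and 3 (log2 0.87, SE 0.31, adjusted p = 0.351, and 0.0121 without number 1). Under the other compound Pf4 had 708, 441 and 476 FPKM in compound OB, against 1015, 374 and 437 FPKM in OB DMSO, lower in compound OB for number 1 and higher for numbers 2 and 3 (log2 −0.05, SE 0.39, adjusted p = 0.9998).

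Ppbp, the gene of a second alpha-granule chemokine, ends 2372 bases before the start of Pf4 on chromosome 5. It had 465, 255 and 286 FPKM in compound PD, against 289, 137 and 142 FPKM in PD DMSO, and 97.6, 50.3 and 59.2 FPKM in compound OB, against 121, 38.5 and 56.3 FPKM in OB DMSO (OB set log2 0.05, SE 0.43, adjusted p = 0.9998). Thbs1, which encodes the adhesive protein thrombospondin 1, had 714, 529 and 483 FPKM in compound PD, against 489, 310.4 and 309 FPKM in PD DMSO (log2 0.65, SE 0.22, adjusted p = 0.302, and 0.0151 without number 1). For both genes PD DMSO 1 was above compound PD 3. Pf4 and Ppbp, as neighbours that were high in the same libraries, have the 250 bases before each start printed from RefSeq (GRCm38.p6, plus strand), Pf4 at chr5:90772185-90772434 and Ppbp at chr5:90768268-90768517. Capitals mark the ETS core GGAAGT on either strand and, in Ppbp, a CArG box, the element bound by serum response factor.
Pf4: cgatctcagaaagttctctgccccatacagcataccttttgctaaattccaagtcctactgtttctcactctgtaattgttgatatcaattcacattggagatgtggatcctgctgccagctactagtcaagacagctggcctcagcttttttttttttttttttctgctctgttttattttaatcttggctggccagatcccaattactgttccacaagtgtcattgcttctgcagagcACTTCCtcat
Ppbp: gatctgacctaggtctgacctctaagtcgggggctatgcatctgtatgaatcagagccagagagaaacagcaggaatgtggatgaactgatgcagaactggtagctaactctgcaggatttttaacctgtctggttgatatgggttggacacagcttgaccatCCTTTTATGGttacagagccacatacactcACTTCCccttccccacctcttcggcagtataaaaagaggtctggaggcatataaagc
The ETS core stands on the opposite strand in both, beginning 10 bases before the start of Pf4 and 57 bases before that of Ppbp.

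The remaining granule genes were Vwf (von Willebrand factor), Mmrn1 (multimerin 1, which carries factor V), Serpine2 (an inhibitor of thrombin), Nbeal2 (needed to form alpha granules), Rab27b (a small GTPase of dense granules) and Selp (P-selectin). Vwf had 113, 73.9 and 69.9 FPKM in compound PD, against 69.0, 37.4 and 33.3 FPKM in PD DMSO, with no overlap. Nbeal2 also did not overlap, and had 44.0, 28.8 and 30.9 FPKM in compound PD, against 18.5, 20.8 and 22.4 FPKM in PD DMSO. Its difference was widest at number 1 (log2 1.20) and 0.45 and 0.45 at numbers 2 and 3. Mmrn1, Rab27b and Serpine2 had log2 differences of 0.87, 0.87 and 0.87 under compound PD, all close to that of Pf4, and 0.05, −0.12 and 0.15 under compound OB. Selp was low, with 1.12, 2.36 and 3.44 FPKM in compound PD, against 1.09, 1.05 and 1.92 FPKM in PD DMSO, and at most 0.40 FPKM in the OB set.

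The eicosanoid enzymes make lipid signals from arachidonic acid. Alox12, the platelet 12-lipoxygenase gene, had 148, 114 and 108 FPKM in compound PD, against 118, 44.1 and 49.2 FPKM in PD DMSO, where PD DMSO 1 was above 2 of the 3 compound libraries (log2 0.93, SE 0.34, adjusted p = 0.357, and 0.00973 without number 1). Ptgs1, which encodes cyclooxygenase 1, had 79.3, 68.0 and 59.6 FPKM in compound PD, against 44.9, 41.7 and 38.9 FPKM in PD DMSO. These groups did not overlap, and Ptgs1 varied little within PD DMSO (log2 0.70, SE 0.16, adjusted p = 0.176, and 0.0513 without number 1). Tbxas1, thromboxane synthase, did not overlap either (32.4, 22.9 and 21.9 FPKM in compound PD, against 21.4, 13.9 and 14.2 FPKM in PD DMSO).

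The 3 enzymes had log2 differences in the OB set from −0.06 (Ptgs1) to 0.16 (Alox12). Alox12 had 17.4, 10.6 and 10.2 FPKM in compound OB, against 22.4, 6.68 and 8.60 FPKM in OB DMSO (SE 0.43, adjusted p = 0.9998). Tbxas1 had 7.73, 4.33 and 4.64 FPKM in compound OB, against 9.54, 3.25 and 3.93 FPKM in OB DMSO (log2 0.08, SE 0.37, adjusted p = 0.9998). For both, OB DMSO 1 was the highest library and OB DMSO 2 and 3 were below every compound OB library.

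The signalling adaptors pass receptor signals to the integrins and the granules. Fermt3, which encodes kindlin-3, the integrin activator of blood cells, had 411, 286 and 265 FPKM in compound PD, against 291, 218 and 216 FPKM in PD DMSO (log2 0.39, SE 0.20, adjusted p = 0.556, and 0.0855 without number 1). It had the smallest difference of the PD set but for P2ry12 and the largest positive one of the OB set. There it had 198, 158 and 143 FPKM in compound OB, against 199, 85.0 and 93.2 FPKM in OB DMSO (log2 0.49, SE 0.32, adjusted p = 0.9998). Without number 1 the adjusted p was 9.49e-11, and 0.000266 with libraries also matched. Such fits have 2 libraries a group, and limma draws their spread largely from all genes. The SE without number 1 was 0.103 for Fermt3, 0.101 for Flna and 0.101 for Tln1. Compound OB 1 and OB DMSO 1 were level for this gene, and the difference came from numbers 2 and 3 (log2 0.89 and 0.61).

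Plek, the gene of pleckstrin, a protein kinase C substrate of platelets, had 323, 199 and 209.7 FPKM in compound PD, against 214, 116 and 118 FPKM in PD DMSO (log2 0.73, SE 0.27, adjusted p = 0.373, and 0.0121 without number 1). It had 53.5, 33.3 and 35.9 FPKM in compound OB, against 66.6, 27.9 and 30.9 FPKM in OB DMSO (log2 0.05, SE 0.35, adjusted p = 0.9998). Its groups overlapped in both sets through the DMSO library of number 1. Gng11, a G protein gamma subunit, had the second largest difference of the PD set, with 24.6, 21.6 and 33.6 FPKM in compound PD, against 15.9, 9.98 and 8.44 FPKM in PD DMSO (log2 1.17, SE 0.26, adjusted p = 0.158). Compound PD 3, not 1, was its highest library. Lat, an adaptor downstream of the collagen receptor, overlapped between the groups in both sets (log2 0.56 under compound PD and 0.21 under compound OB). Gng11 and Lat were described after their values were seen.

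The cytoskeletal genes included the largest difference of all members. Tubb1, which encodes the beta-tubulin of the platelet marginal band, had 46.5, 65.2 and 62.0 FPKM in compound PD, against 29.1, 18.8 and 17.3 FPKM in PD DMSO. Every compound library was above every DMSO library, and compound PD 2 and 3 were the highest (log2 1.39, SE 0.23, adjusted p = 0.0992, and 0.00630 without number 1). Under compound OB the groups overlapped, and Tubb1 had 21.8, 14.6 and 15.1 FPKM in compound OB, against 30.4, 11.1 and 13.3 FPKM in OB DMSO (log2 0.02). Tubb1 is named for its place at the top of the list, after its values were seen.

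Flna, which encodes the actin crosslinker filamin A, had 289, 235 and 222 FPKM in compound PD, against 147, 129 and 117 FPKM in PD DMSO. The groups were well apart, and the difference was alike at the 3 numbers (0.97, 0.87 and 0.92 on the log2 scale), with a fitted log2 of 0.92 (SE 0.16, adjusted p = 0.0992, and 0.0121 without number 1). Flna in the OB set had 56.8, 58.4 and 51.0 FPKM in compound OB, against 60.0, 34.6 and 36.9 FPKM in OB DMSO. OB DMSO 1 was the highest and OB DMSO 2 and 3 the lowest (log2 0.37, SE 0.21, adjusted p = 0.9998). Without number 1 the adjusted p was 3.91e-07, and 0.00312 with libraries also matched. Zyx, the gene of the focal adhesion protein zyxin, had 298, 217 and 194 FPKM in compound PD, against 201, 112 and 104 FPKM in PD DMSO (log2 0.80, SE 0.27, adjusted p = 0.302, and 0.0132 without number 1). PD DMSO 1 was just above compound PD 3, so the groups overlapped.

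Tln1, which encodes talin 1, the link from integrins to actin, had 80.1, 69.8 and 55.6 FPKM in compound OB, against 87.3, 42.0 and 41.7 FPKM in OB DMSO (log2 0.34, SE 0.30, adjusted p = 0.9998). Without number 1 its adjusted p was 2.21e-06, and 0.00431 with libraries also matched. Relative to its mean Zyx spread the most in OB DMSO, with 41.7, 18.3 and 13.8 FPKM in compound OB, against 58.1, 8.88 and 10.4 FPKM in OB DMSO. Vcl (vinculin) hardly varied, with 43.4, 52.1 and 50.2 FPKM in compound OB, against 46.5, 47.4 and 47.3 FPKM in OB DMSO. Myl9, the regulatory myosin light chain, was the one member with an unadjusted p under 0.05, at 1.96, 1.45 and 1.08 FPKM in compound OB, against 4.38, 1.86 and 2.86 FPKM in OB DMSO (log2 −0.66, SE 0.26, adjusted p = 0.9998, 0.00164 without number 1, and 0.0515 without number 1 and with libraries matched). It was lower in compound OB at every number, while in the PD set it had 21.7, 24.5 and 23.3 FPKM in compound PD, against 23.5, 7.97 and 7.40 FPKM in PD DMSO. Mylk, the kinase of that light chain, had log2 0.65 under compound PD and 0.10 under compound OB.

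**Figure D3:**
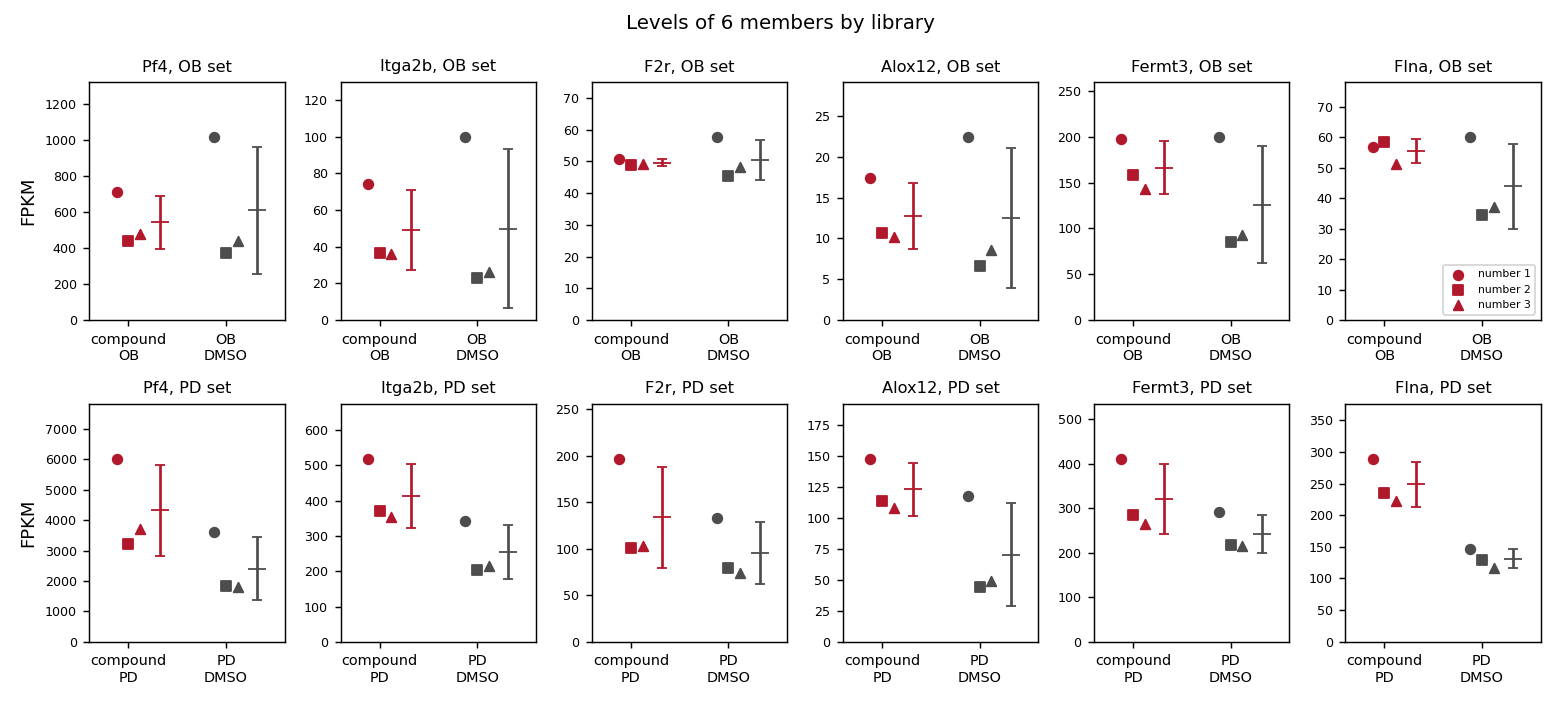
FPKM of the highest tested member common to both sets' named genes in each role, by library (circle number 1, square number 2, triangle number 3; compound in red, DMSO in grey), with the group mean and SD (n = 3) as a bar at the side. In the PD set the compound libraries of Itga2b and Flna lie above every DMSO library, and in the OB set number 1 is the highest of its group everywhere but for Flna in compound OB.

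Rab27b, the member on chromosome 18, was left out of the promoter search, while the 27025 promoters used for comparison were not filtered by chromosome. RefSeq windows of 32 of the 37 members were searched. In the 250 bases before the start, 8 of these 32 held a GATA form (25%, against 27.1% of 27025 mouse promoters) and 10 the ETS core (31.2%, against 20.0%). The CRE half-site TGACG, searched because the study concerns CREB, was in 2 (Plek and Tln1; 6.25%, against 17.9%), and the CArG box in 3 (Ppbp, Vcl and Myl9; 9.38%, against 1.40%). Both strands were searched, and no match says only that these letters are not in this window.

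The compounds' effects were compared in 1 fit of the 12 libraries. Of 36 members tested, 35 had a larger difference in the PD set than in the OB set, with a median of 0.70 on the log2 scale, against 0.02 over all genes. None was called in limma, nor was any gene (0%), and 6 had an unadjusted p under 0.05 (Myl9, Tubb1, Gng11, Cd9, Gp9 and Rab27b), against 7.38% of all genes. Without number 1, 14 were called with the larger difference in the PD set, where 1.88% of all genes were. The median was 0.29 without OB DMSO 1 and 0.48 without compound PD 1, and the count of 6 ran from 3 (without OB DMSO 1, among others) to 15 (without PD DMSO 1). Compound, dose and set go together, so a difference between the compounds may equally be one of dose or set, and these cannot be told apart.

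By gene, the difference between effects was 0.92 for Pf4 (SE 0.55, adjusted p = 0.820, and 0.0266 without number 1) and 0.51 for Itga2b (SE 0.67, adjusted p = 0.998, and 0.245 without number 1). It was 0.48 for F2r and 0.66 for F2rl2, with adjusted p of 0.930 and 0.970. Thbs1 had 0.48, Alox12 0.77 and Ptgs1 0.76, with adjusted p from 0.743 (Ptgs1) to 0.998 (Thbs1). For Plek, Flna and Tln1 the SE were 0.47, 0.27 and 0.38, and the differences 0.68, 0.55 and 0.15. Fermt3 was the one member with the larger difference in the OB set (−0.10, SE 0.40). The largest was that of Myl9 (1.64, SE 0.50, adjusted p = 0.423, and 0.00522 without number 1), with Tubb1 next (1.37, SE 0.44, adjusted p = 0.442, and 0.00364 without number 1).

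Other genes of the lineage, from 2 lists that hold no member, were set beside these. Of 46 further platelet genes tested in the PD set, all 46 had a higher mean in compound PD, with a median log2 of 0.60, and none was called. Of 43 in the OB set, 25 were higher in compound OB, with a median of 0.01. Among megakaryocyte regulators, 11 of 16 were higher in compound PD (median 0.25) and 12 of 14 in compound OB (median 0.12), none called. The most abundant regulator, Nfe2, a transcription factor of platelet formation, had 254, 254 and 236 FPKM in compound PD, against 395, 237 and 222 FPKM in PD DMSO, and Zfpm1, the GATA cofactor, had 201, 162 and 142 FPKM in compound PD, against 183, 162 and 228 FPKM in PD DMSO. Nfe2 had 197, 157 and 150.1 FPKM in compound OB, against 214, 138 and 155 FPKM in OB DMSO.

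Markers of other cells also differed in summed level between the same groups and numbers. The erythroid list was lower in compound PD for 17 of 18 genes (median log2 −0.42, none called), with a summed level of 3045, 4425 and 4305 FPKM in compound PD, against 7809.5, 4375 and 4368 FPKM in PD DMSO. These sums lay far apart only at number 1 and were close at numbers 2 and 3. The neutrophil and granulocyte precursor list was higher for 15 of 15 genes, 1 of them called (Fcnb, a ficolin of neutrophil precursors), with sums of 30319.8, 31517 and 37968 FPKM in compound PD, against 11841, 17846 and 17095 FPKM in PD DMSO. The mast cell and basophil list summed to 3534, 1699 and 1704 FPKM in compound PD, against 2063, 1043 and 1084 FPKM in PD DMSO, with 8 of 10 genes higher. The macrophage and monocyte list summed to 2217, 2564 and 2739.5 FPKM in compound PD, against 777, 1404 and 1377 FPKM in PD DMSO, with 6 of 7 higher. Where number 1 stood, gene by gene, differed between these lists and between compound PD and PD DMSO. In compound PD it was the highest library for 8 of 15 neutrophil genes (Mpo and Prtn3 among them) and the lowest for the other 7, which include S100a8 and S100a9, the bulk of the sum. In PD DMSO it was the lowest for all 15. For the 7 macrophage genes tested it was the highest for 2 and the lowest for 4 in compound PD, and the lowest for all 7 in PD DMSO. For the 10 mast cell and basophil genes it was the highest for 8 in compound PD and for 5 in PD DMSO, and the lowest for 1 (Mcpt8) in compound PD and for 4 in PD DMSO, Mcpt8 and Prss34 among them.

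The erythroid list of the OB set was steady, at 4958, 4557 and 4557 FPKM in compound OB, against 4575, 4469.8 and 4837 FPKM in OB DMSO. Neutrophil markers (495, 168 and 184 FPKM in compound OB, against 592, 149.6 and 148 FPKM in OB DMSO) and macrophage markers (32.4, 14.4 and 15.3 FPKM in compound OB, against 41.4, 15.9 and 14.3 FPKM in OB DMSO) were highest in number 1 of both groups. The mast cell and basophil list summed to 73.1, 57.8 and 50.8 FPKM in compound OB, against 79.4, 31.3 and 37.9 FPKM in OB DMSO. Gata2, a transcription factor also of blood progenitors, was the largest part of the sum, with 53.8, 43.7 and 36.0 FPKM in compound OB, against 40.0, 21.0 and 23.7 FPKM in OB DMSO. Without Gata2 the list summed to 19.2, 14.01 and 14.8 FPKM in compound OB, against 39.4, 10.3 and 14.2 FPKM in OB DMSO. Of the 6 genes of this list tested in the OB set, 4 were lower and 2 higher in compound OB, none called. Cpa3, Cma1, Mcpt8 and Hdc were the lower ones, with log2 differences of −0.30, −0.45, −0.23 and −0.01. Gata2 and Il4 were the higher ones, and Il4 had 2.25, 2.33 and 4.34 FPKM in compound OB, against 1.72, 1.46 and 2.62 FPKM in OB DMSO. Endothelial, hepatocyte and lymphoid lists summed to at most 38.95 FPKM in any library of either set. Ttr, which liver cells make in bulk, was listed at 0 in all 12 libraries. All erythroid markers listed were above 0 in every library (18 in the PD set and 17 in the OB set). The part that other cells had in the members' values was not tested.

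**Figure D4:**
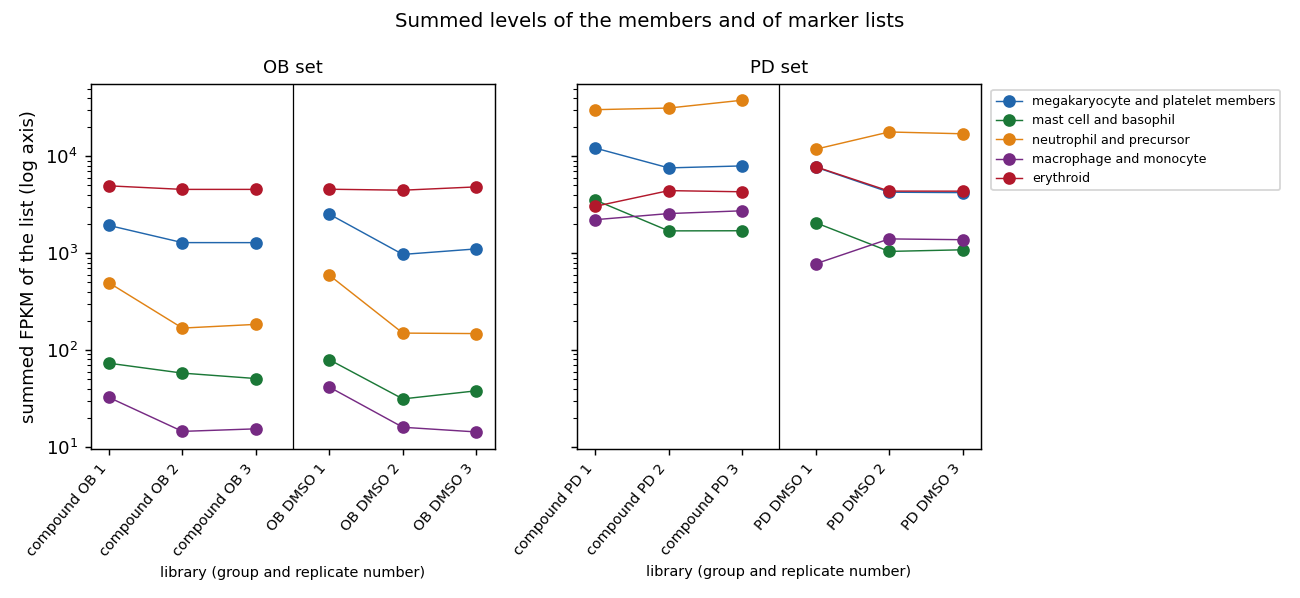
Summed FPKM (log axis) of the 37 members and of 4 lists of cell type markers in each library, compound left of DMSO, with lines joining the 3 libraries of a group. In the PD set the neutrophil and macrophage lists sum higher in every compound library than in any DMSO library, the members overlap through PD DMSO 1, and the erythroid list is highest in PD DMSO 1.

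Sequence counted for 8 members may come in part from another gene, since 8 of the 37 overlap another protein-coding gene in the RefSeq annotation and the use of strand is not given in the sources used here. These are Gp1bb, Clec1b, F2rl2, P2ry12, Tbxas1, Fermt3, Zyx and Vcl, whose values are uncertain in that respect.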

How the data were processed

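RNA of 12 libraries was measured by sequencing. The submitters' processing notes name STAR and the mm10 build, and the authors deposited 1 FPKM value a gene in each library, per the file headers. Not given in the sources used here are versions, how FPKM were computed, the gene annotation, and whether strand was used. Depth is unknown, since FPKM keep no counts, and precision is the SD over 3 libraries. Low values showed no whole-read steps (8.00% of OB ratios and 8.85% of PD ratios lay within 0.05 of a whole number, where a uniform spread gives 10%). No libraries were identical.

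Of 24054 entries in the OB set, 27 names turned into dates, 419 names split at a hyphen and 11 repeated symbols were left out. Of 54752 in the PD set, 27 dates and 185 entries of repeated symbols were left out. The deposited FPKM were tested as log2(FPKM + 1) with limma 3.58.1 (R 4.3.3, statmod 1.5.0, trend and robust), two-sided, with Benjamini-Hochberg adjustment over every gene whose mean reached 1 FPKM. This scale understates the change of low genes. Each compound was fitted against its own DMSO, and the difference between effects over all 12 libraries. The fitting code was tested on simulated data with large changes and a capped spread between libraries, which does not show how small a change it could detect here.

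The members and lists were chosen with earlier results of these data known. Fold change and test are given for called members and for the 2 tested members of highest mean in each of the 6 roles, and others singled out are said to be so. In the OB set the correlations of same-numbered deviations from the group means were 0.83, 0.43 and 0.65 without the members (10038 genes). Compound OB 2 with OB DMSO 3 had 0.32, and compound OB 3 with OB DMSO 2 had 0.41. Number 1 thus went together across the groups, but these values do not settle whether numbers 2 and 3 are pairs. In the PD set the same-numbered correlations were −0.01, −0.03 and −0.02 without the members (11850 genes). They do not settle whether the numbers pair those libraries. Alternatives were another pseudocount (0.1), no filter, median-ratio scaling, quantile normalization, no moderation options, a replicate block and each library left out. Promoters are RefSeq's (GRCm38.p6), searched with Python 3.11.15.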

Additional observations from a re-analysis of the deposited data

Results flagged for a closer look

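Cd9 had differences of opposite sign in the OB and PD sets when libraries were compared by number. It was higher in compound PD at numbers 1, 2 and 3, by 0.26, 0.74 and 0.90 on the log2 scale, and lower in compound OB at each number, with −0.61, −0.16 and −0.38. The difference between the effects was 1.02 (SE 0.44) and did not pass in limma (adjusted p = 0.622). Without number 1 it did (log2 1.09, adjusted p = 0.0134). Compound, dose and set cannot be told apart here.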

How the results depend on the processing

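No member was called in either set or in the difference between effects under another pseudocount, no filter, either rescaling or plain moderation, and the medians over the members kept their signs. Calls came without number 1, without PD DMSO 1 and with the replicate block. Without the number 1 libraries, an alternative chosen after seeing the data, 17 members were called in the OB set (15 higher, 2 lower), 27 in the PD set and 14 for the difference. F2r (log2 0.062) and Pf4 (0.18) were then higher in compound OB, and Tln1 had a difference between effects of −0.043. Leaving out each library in turn gave 0 to 16 calls in the PD set, with medians from 0.60 (without compound PD 1) to 1.10 (without PD DMSO 1). For the difference it gave 0 to 1, where the 1 needs PD DMSO 1 left out. In that fit 8 of all 10309 genes were called with the larger difference in the PD set and 7 with the smaller.

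The replicate block, on numbers not known to pair the PD libraries, gave 1 call there (Pf4). Of all 11887 genes, 36 were called higher and 5 lower in that fit. After leaving out number 1 it called 26 members, where 168 of 11887 genes were higher and 38 lower. It called 1 member without number 2, where 46 of 11867 genes were higher and 24 lower. Without number 3 it also called 1, where 52 of 11867 genes were higher and 30 lower. With the replicate block the OB set gave 0 calls, with 13 without number 1 (all higher, so that Cd9 and Myl9 were no longer called lower), 2 without number 2 (both lower) and 0 without number 3. It called no member for the difference.

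Members with an unadjusted p under 0.05 numbered 31 in the PD set, against 10 with median-ratio scaling, 35 with the replicate block and 10 to 35 with a library left out. The count over all genes was 1268 of 11887 in the main fit, 1330 with median-ratio scaling and 1146 with the block. It was 749 of 11825 without compound PD 1 (10 members) and 2386 of 11941 without PD DMSO 1 (35 members). Such members numbered 1 in the OB set, against 2 with no filter, 3 with the replicate block and 0 to 14 with a library left out. All genes rose too, from 372 of 10073 in the main fit to 1497 of 10073 with the block. They reached 1931 of 10025 without OB DMSO 1, the fit with 14 members. For the difference the members numbered 6, against 3 with no filter or median-ratio scaling, 24 with the replicate block and 3 to 15 with a library left out. Over all genes there were 761 of 10311 in the main fit and 1131 of 10311 with the block. There were 1486 of 10309 without PD DMSO 1, the fit with 15 members.

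Leaving out each library in turn also turned signs in the OB set, where the median over the members ran from −0.17 to 0.48. The log2 difference ran from −0.16 to 0.87 for Itga2b, from −0.089 to 0.080 for F2r and from −0.071 to 0.57 for F2rl2. It ran from −0.33 to 0.39 for Pf4, from −0.31 to 0.50 for Ppbp, from −0.16 to 0.64 for Alox12, from −0.17 to 0.48 for Tbxas1 and from −0.18 to 0.43 for Plek. In each the upper end lacks OB DMSO 1 and the lower end OB DMSO 2. For the difference between effects it ran from −0.15 to 0.89 for Itga2b, from −0.088 to 0.78 for Thbs1, from −0.49 to 0.12 for Fermt3 and from −0.20 to 0.33 for Tln1. The causes were not tested. Over the alternatives for named members, leave-outs included, 141 in the PD set kept direction and side of the threshold and 15 passed it, with none reversed. In the OB set 127 kept both, 7 passed the threshold and 22 were reversed. For the difference 215 kept both, 4 passed it and 9 were reversed. Depth is unknown, so what it limits cannot be given.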

Other observations

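Among the 46 further platelet genes tested in the PD set, Tbxa2r, which encodes the thromboxane receptor of platelets, was picked for the largest difference, after its values were seen. It had 7.99, 5.06 and 3.78 FPKM in compound PD, and was at 2.32, 0.69 and 0 FPKM in PD DMSO (log2 1.85, SE 0.44, adjusted p = 0.179 in limma). Its highest DMSO library was below its lowest compound library.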
